A study of Mus musculus with 6 samples.

Results

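A set of 10 genes of haemostasis at the vessel wall was followed in mouse aorta: Vwf, Thbd, Procr, Tfpi, Tfpi2, F3, F8, Plat, Plau and Plaur. They were chosen by name and role, with earlier results of these data known. Each was read from the probe set whose platform annotation gave its symbol and no other. All 10 were found, of 22184 genes named in this way, and each had 1 such probe set, so no second probe set was at hand as a check. All 10 also lay above the level used to leave out dim genes. The eNOS-deficient group was 3 samples, numbered 11, 15 and 19 in their titles, of aorta from mice without endothelial nitric oxide synthase, the enzyme of the vessel lining that Nos3 encodes. The other group was 3 samples of wild-type aorta of matched age, numbered 2, 3 and 5. Each sample was measured on 1 Affymetrix array, and values are log2 signals, on which a difference of 1 is a doubling. Strain, sex, age in weeks and the targeted allele are not stated by the labels, which also do not say whether the samples are separate animals; p-values therefore cover only the spread between these samples.

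The vessel wall takes part in clotting on both sides. When it is injured, tissue factor (F3) starts coagulation, and von Willebrand factor (Vwf) tethers platelets and carries coagulation factor VIII (F8) in the blood. The intact endothelium opposes clotting through tissue factor pathway inhibitor (Tfpi), through thrombomodulin (Thbd) and the endothelial protein C receptor (Procr), which together turn thrombin toward the activation of protein C, and through tissue plasminogen activator (Plat), which dissolves fibrin. Nitric oxide from the endothelium itself restrains platelets.

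The arrays were close in overall level, with medians of 5.55 to 5.59 for eNOS-deficient aorta and 5.61 to 5.68 for wild type. These medians did not overlap between the groups, and some arrays differed in tissue make-up. The smooth muscle actin gene Acta2 (12.30 to 12.80) and the endothelial cadherin gene Cdh5 (9.75 to 11.02) were bright on every array, and so was the brown fat gene Ucp1 (12.91 to 13.12). The mean of 12 squamous epithelium markers was 5.01, 4.93 and 4.85 on eNOS-deficient 11, 15 and 19, against 6.10, 5.14 and 9.05 on wild type 2, 3 and 5. Wild type 5 thus carried far more epithelial signal than the others. The mean of 22 endothelial markers was 7.72, 7.97 and 8.02 on eNOS-deficient 11, 15 and 19, against 8.25, 8.34 and 7.52 on wild type 2, 3 and 5, so that it was lowest on wild type 5 as well. The mean of 6 lymphocyte markers was 6.23 on eNOS-deficient 11 and 8.04 to 8.94 on the other arrays. The mean of 3 Y-linked genes was 7.76, 4.71 and 8.00 on the eNOS-deficient arrays and 3.47 to 3.63 on the wild-type arrays. Genotype thus moved with Y-linked signal, although eNOS-deficient 15 lay nearer the wild-type arrays than eNOS-deficient 11 and 19. Nos3, the targeted gene, measured 7.13, 7.39 and 7.27 in eNOS-deficient aorta, against 7.99, 7.88 and 7.36 in wild type, and its groups overlapped through wild type 5. Its difference was -0.48 log2 (limma adjusted p = 0.399), so the targeted gene itself did not pass the test used below. In bulk tissue, fewer cells of a type and less RNA per cell cannot be told apart.

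Across the 10 genes, expression of 9 averaged higher in eNOS-deficient aorta and 1, Plaur, averaged lower, but none passed the test over all genes tested. Plat stood out with the smallest p and with no overlap of the groups, followed by F3 and Tfpi, also without overlap. Vwf and Procr differed by under 0.1 log2, and F8 varied more between arrays of 1 genotype than between genotypes. At a limma adjusted p under 0.05, the counts were 0 higher and 0 lower of 10, where 0.0111% of all 18008 genes tested passed as higher and 0.0167% as lower. At an unadjusted p under 0.05, Plat and F3 were higher and none was lower, beside 7.86% of all genes higher and 3.72% lower. The arrays of the groups did not overlap for 3 of the 10, all higher, where 13.1% of all genes did so as higher and 6.47% as lower. The median difference of the 10 was 0.19 log2, from -0.17 to 0.58, beside 0.036 over all genes tested. These shares are small numbers of genes, and nothing particular to the 10 is read from them.

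**Figure D1:**
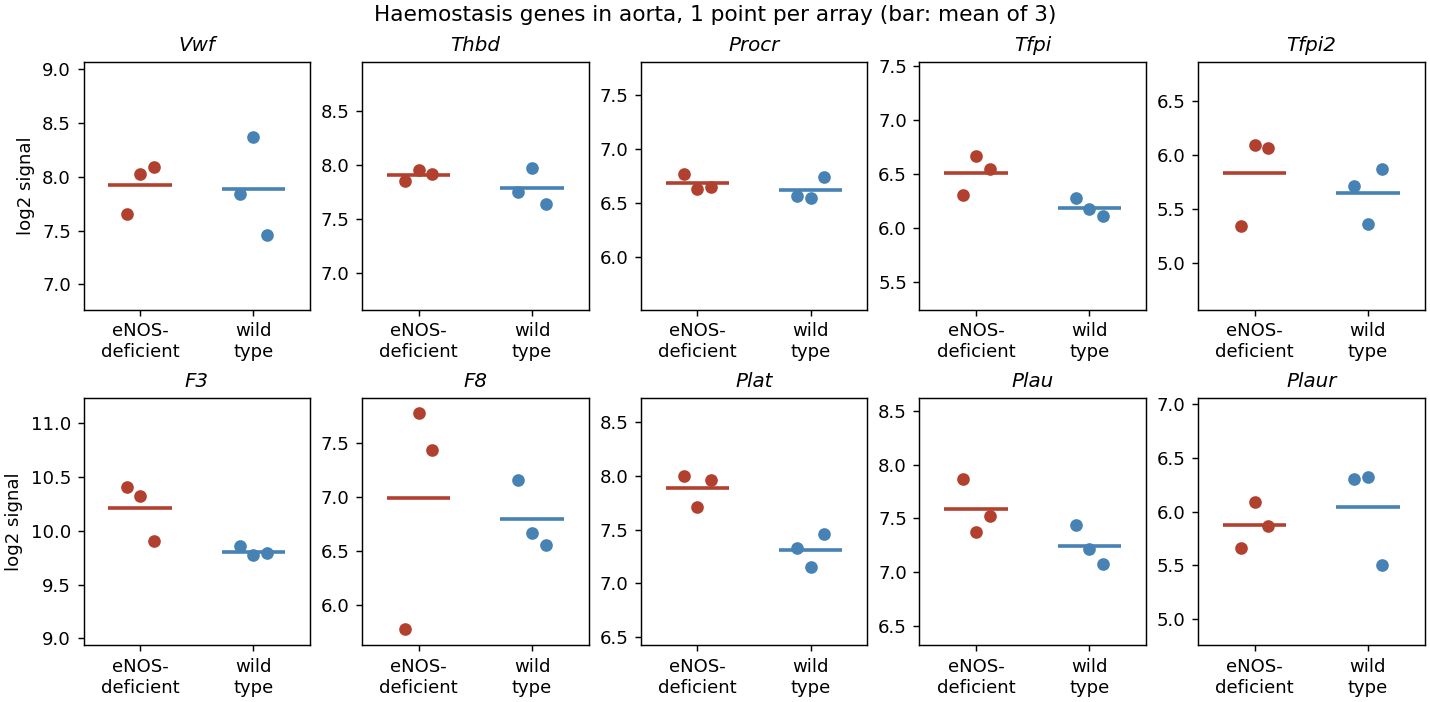
Log2 signal (vertical axis, every panel spans the same range) of the 10 haemostasis genes on each array, 1 point per array, with eNOS-deficient samples on the left, wild type on the right and a bar at the mean of 3. The groups are apart for Plat (7.71 to 8.00 against 7.15 to 7.45), F3 (9.90 to 10.40 against 9.77 to 9.86) and Tfpi (6.30 to 6.67 against 6.11 to 6.28), and overlap for the other 7.

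The plasminogen activators held the largest difference. Plat, whose product cleaves plasminogen to plasmin on fibrin, measured 8.00, 7.71 and 7.96 in eNOS-deficient 11, 15 and 19, against 7.33, 7.15 and 7.45 in wild type 2, 3 and 5. The lowest eNOS-deficient array lay above the highest wild-type array. The means were 7.89 ± 0.16 and 7.31 ± 0.15 (SD, n = 3 each), a difference of 0.58 log2 (1.49-fold, standard error 0.14, 95% interval 0.25 to 0.90, limma adjusted p = 0.256). Plat ranked 286 of 18008 genes by p. With exact permutation of the arrays, where 3 against 3 cannot go below 0.1, the two-sided p was 0.1. Its difference stayed between 0.50 and 0.66 when any 1 array was left out, and was 0.65 without wild type 5.

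Plau, the urokinase-type plasminogen activator that acts at the cell surface, measured 7.86, 7.38 and 7.52 in eNOS-deficient aorta, against 7.44, 7.21 and 7.08 in wild type. Only eNOS-deficient 11 and 19 lay above all wild-type arrays, so the groups overlapped. The difference was 0.34 log2 (standard error 0.17, interval -0.05 to 0.74, limma adjusted p = 0.484), and without eNOS-deficient 11 it was 0.21. Plaur, the receptor that holds urokinase at the cell surface, was the 1 gene with a lower mean, at 5.66, 6.09 and 5.87 in eNOS-deficient aorta, against 6.30, 6.32 and 5.50 in wild type. Wild type 2 and 3 were the highest of all arrays and wild type 5 the lowest. The difference of -0.17 (standard error 0.24, interval -0.74 to 0.41, limma adjusted p = 0.840) was -0.44 without wild type 5 and between -0.06 and -0.03 when eNOS-deficient 11, wild type 2 or wild type 3 was dropped.

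Tissue factor and its inhibitor both averaged higher in eNOS-deficient aorta. F3, the membrane receptor for factor VII that starts coagulation and that cells of the adventitia carry, was bright, at 10.40, 10.32 and 9.90 in eNOS-deficient aorta, against 9.86, 9.77 and 9.80 in wild type. The groups did not overlap, but eNOS-deficient 19 lay only just above the wild-type range. The means were 10.21 ± 0.27 and 9.81 ± 0.043 (SD, n = 3 each), a difference of 0.40 log2 (1.32-fold, standard error 0.16, interval 0.04 to 0.77, limma adjusted p = 0.397, exact permutation p = 0.1). Tfpi, whose product blocks tissue factor with factor VIIa and factor Xa, measured 6.30, 6.67 and 6.55 in eNOS-deficient aorta, against 6.28, 6.18 and 6.11 in wild type. The gap between the groups was narrow, between eNOS-deficient 11 and wild type 2. The difference was 0.32 log2 (1.25-fold, standard error 0.14, interval -0.0006 to 0.64, limma adjusted p = 0.432, exact permutation p = 0.1).

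Tfpi2, a related inhibitor of plasmin and other serine proteases in the matrix, measured 5.34, 6.09 and 6.07 in eNOS-deficient aorta, against 5.71, 5.36 and 5.87 in wild type. The groups overlapped, with eNOS-deficient 11 the lowest of all arrays. The difference was 0.19 log2 (standard error 0.24, interval -0.38 to 0.75, limma adjusted p = 0.814), 0.43 without eNOS-deficient 11, 0.30 without wild type 5, 0.06 without eNOS-deficient 15, 0.07 without eNOS-deficient 19 and 0.04 without wild type 3. Within an array, the difference of F3 over Tfpi averaged 3.70 ± 0.37 log2 in eNOS-deficient aorta, against 3.62 ± 0.057 for wild type (SD, n = 3 each, exact permutation p = 0.8), so an unequal shift of the initiator and its inhibitor was not detectable with 3 arrays a group. That of Tfpi2 over Tfpi averaged -0.67 ± 0.26 and -0.54 ± 0.29 (exact permutation p = 0.6). Both are set between the groups only, since levels of different probe sets are not comparable.

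The start regions of F3 and Tfpi, which are members without overlap of the groups and with an entry in the RefSeq promoter table (build GRCm38.p6), are shown so that the genes can be placed. Each runs 300 bases, from 250 before the annotated start to 50 after it. Capitals mark CACCC, a short motif that Krüppel-like factors of endothelium bind, and GGGCGG, the box that Sp1 binds, each on either strand (GGGTG and CCGCCC on the strand shown), and no 2 of these overlap here. The F3 region lies on the plus strand at chr3:121723287-121723586 and the Tfpi region on the minus strand at chr2:84476710-84477009.
F3: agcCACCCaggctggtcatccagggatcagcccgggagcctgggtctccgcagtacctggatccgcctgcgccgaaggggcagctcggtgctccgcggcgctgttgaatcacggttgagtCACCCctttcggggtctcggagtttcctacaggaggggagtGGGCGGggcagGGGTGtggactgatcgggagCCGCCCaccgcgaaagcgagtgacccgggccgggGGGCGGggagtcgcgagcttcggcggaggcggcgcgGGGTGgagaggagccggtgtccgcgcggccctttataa
Tfpi: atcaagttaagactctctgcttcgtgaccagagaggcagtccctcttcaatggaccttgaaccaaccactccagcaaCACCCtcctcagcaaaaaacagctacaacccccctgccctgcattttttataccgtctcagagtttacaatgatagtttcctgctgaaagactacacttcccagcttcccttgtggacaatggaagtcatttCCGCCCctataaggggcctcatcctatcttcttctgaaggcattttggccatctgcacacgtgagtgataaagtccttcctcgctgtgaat

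The F3 region was rich in G and C (70.3%) and held CACCC 2 times on the strand shown and 2 times on the other, and GGGCGG 2 times and 1 time. The Tfpi region (48.0% G and C) held CACCC 1 time on the strand shown and GGGCGG 1 time on the other. A second Tfpi start in the table held each motif 1 time, on the other strand. Both motifs are common: of 32851 promoter entries, 57.52% held CACCC and 35.66% held GGGCGG on either strand. The matches describe letters in these windows and say nothing of binding. Of the 10 genes, 6 had an entry: besides F3 and Tfpi these were Procr, Tfpi2, F8 and Plaur.

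**Figure D2:**
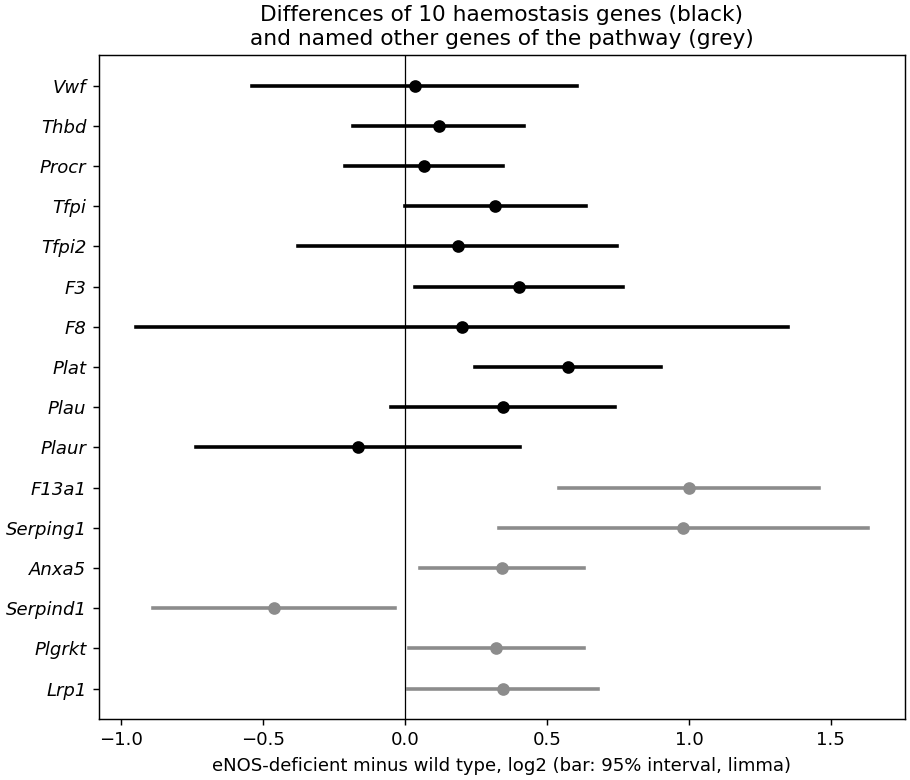
Difference of eNOS-deficient minus wild type (horizontal axis, log2; bar, 95% interval from limma over 3 arrays a group) for the 10 haemostasis genes in black and for the named other genes of the pathway in grey. Among the 10, the interval lies above 0 for Plat (0.25 to 0.90) and F3 (0.04 to 0.77) and is widest for F8 (-0.95 to 1.35). The grey genes were picked for the smallest unadjusted limma p, all under 0.05, so each grey interval leaves out 0 by that choice. The grey interval lies below 0 for Serpind1 (-0.89 to -0.04) and above 0 for F13a1 (0.54 to 1.46), Serping1 (0.33 to 1.63), Anxa5, Plgrkt and Lrp1.

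The anticoagulant receptors of the endothelium differed little. Thbd, thrombomodulin, measured 7.85, 7.95 and 7.92 in eNOS-deficient aorta, against 7.75, 7.97 and 7.64 in wild type. The eNOS-deficient arrays were close together inside the wild-type range. The difference was 0.12 log2 (1.09-fold, standard error 0.13, limma adjusted p = 0.767), and its 95% interval, -0.18 to 0.42, bounds the change in either direction. It was 0.05 without wild type 5 and 0.21 without wild type 3. Procr, the receptor that presents protein C to thrombin and thrombomodulin, measured 6.77, 6.63 and 6.65 in eNOS-deficient aorta, against 6.56, 6.55 and 6.74 in wild type. It was the steadiest of the 10, with a standard deviation over the 6 arrays of 0.091 log2, at or above that of only 4.98% of genes tested. Its difference was 0.07 log2 (standard error 0.12, interval -0.21 to 0.34, limma adjusted p = 0.875), 0.13 without wild type 5, 0.02 without eNOS-deficient 11, 0.03 without wild type 3 and 0.04 without wild type 2.

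Vwf, made by endothelium and megakaryocytes, measured 7.65, 8.03 and 8.09 in eNOS-deficient aorta, against 7.84, 8.37 and 7.46 in wild type. The wild-type arrays spanned the whole eNOS-deficient range, with wild type 3 highest and wild type 5 lowest of all. The means were 7.92 ± 0.24 and 7.89 ± 0.46 (SD, n = 3 each), a difference of 0.03 log2 (standard error 0.24, interval -0.54 to 0.61, limma adjusted p = 0.972). Its sign turned with single arrays: it was -0.18 without wild type 5, -0.05 without eNOS-deficient 19, -0.02 without eNOS-deficient 15, 0.17 without eNOS-deficient 11, 0.01 without wild type 2 and 0.28 without wild type 3.

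F8, the cofactor that circulates bound to von Willebrand factor and is made by endothelial cells, was the most variable of the 10. It measured 5.77, 7.78 and 7.44 in eNOS-deficient aorta, against 7.16, 6.67 and 6.56 in wild type. Both the lowest and the highest arrays were eNOS-deficient, 11 and 15. The standard deviation over the 6 arrays, 0.72 log2, was at or above that of 97.2% of genes tested, and the difference of 0.20 (standard error 0.49, interval -0.95 to 1.35, limma adjusted p = 0.910) was not distinguishable from 0. Without eNOS-deficient 11 it was 0.81 (limma adjusted p = 0.402, where over all alternatives the adjusted p of F8 ran from 0.204 to 1.00), without eNOS-deficient 15 it was -0.19, without eNOS-deficient 19 -0.02, without wild type 2 0.38, without wild type 3 0.14 and without wild type 5 0.08. The array low in F8 was the one low in lymphocyte markers: their mean over 6 genes was 6.23, 8.67 and 8.94 on eNOS-deficient 11, 15 and 19, against 8.04, 8.67 and 8.24 on wild type 2, 3 and 5. The same array was the highest in skeletal muscle markers, whose mean over 8 genes was 11.50 there and 8.94 to 10.94 on the other 5, and their part in F8 was not tested. In a fit that adds the lymphocyte mean as a term, an alternative added once the values were known, the F8 difference was 0.44 log2. The mean of 5 lymphatic endothelial markers was 7.15, 7.17 and 7.40 on eNOS-deficient arrays and 6.60, 6.83 and 6.91 on wild-type arrays. On eNOS-deficient 11 it was the lowest of its group but above all wild-type arrays. The markers differed there. Prox1 (5.85) and Lyve1 (9.28) lay above all wild-type arrays and Pdpn (7.33) was the highest of all. Flt4, at 6.65 against 6.64 to 7.04 on the other arrays, was among the lowest. Their part in F8 was not tested. F8 lies on the X chromosome, and the groups also differed in Y-linked signal, as given above.

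**Figure D3:**
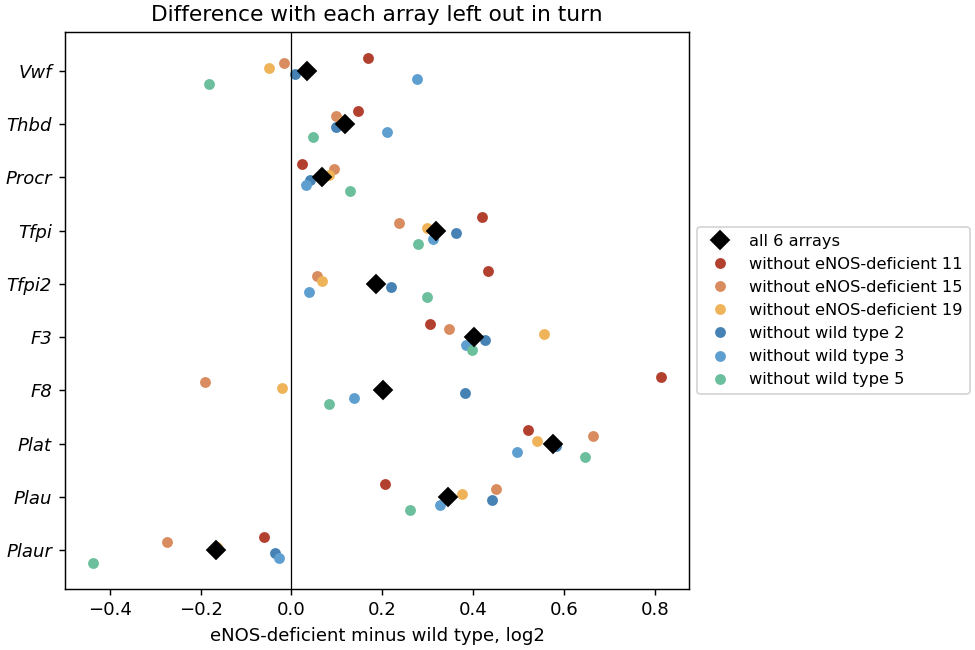
Difference of eNOS-deficient minus wild type (horizontal axis, log2) for each gene with all 6 arrays (black diamond) and with each array left out in turn (coloured points). Plat stays between 0.50 and 0.66, F3 between 0.31 and 0.56 and Tfpi between 0.24 and 0.42, while F8 runs from -0.19 to 0.81 and Vwf from -0.18 to 0.28.

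Because endothelial signal differed between arrays, each gene was also set against the mean of 22 endothelial markers on the same array. Of these markers, 7 averaged higher in eNOS-deficient aorta and 15 lower, so the mean does not stand for a shift shared by all. Relative to that mean, Plaur was nearly constant, at -2.06, -1.88 and -2.15 log2 on eNOS-deficient 11, 15 and 19, against -1.95, -2.02 and -2.02 on wild type 2, 3 and 5. Its standard deviation over the arrays was 0.093 log2 after this step, against 0.34 before it, and 0.178% of genes tested had so small a spread around the endothelial mean. Plaur thus moved with the endothelial markers across arrays, wild type 5 included, and its difference between genotypes was -0.04 log2 relative to them (exact permutation p = 0.8). Vwf also had a smaller spread around the endothelial mean, 0.18 against 0.33 log2, which 4.63% of genes tested matched or undercut, and its relative difference was 0.16 log2 (exact permutation p = 0.3). Relative to that mean Vwf stood at -0.06, 0.06 and 0.07 on the eNOS-deficient arrays, against -0.41, 0.04 and -0.06 on wild type 2, 3 and 5, so that wild type 2 was the array that departed.

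For the other 8, setting the gene against the endothelial mean narrowed the spread little or widened it. For 7 of them the spread around the endothelial mean was larger than the plain spread, among them Thbd (0.26 against 0.13 log2), Procr (0.40 against 0.091) and Plat (0.56 against 0.34), and for F8 it was 0.66 against 0.72. The endothelial mean itself ran from -0.45 to 0.37 log2 around its average over the arrays. Subtracting it must widen genes as steady as Thbd and Procr, so the widening alone does not say whether they follow the markers. Around its own average, Procr stood at 0.12 and 0.09 log2 on eNOS-deficient 11 and wild type 5. The endothelial mean stood there at -0.25 and -0.45. On wild type 2 and 3 Procr stood at -0.09 and -0.10, against 0.28 and 0.37. Procr thus ran opposite to the endothelial mean on these arrays, and why was not tested. Thbd was mixed, at -0.20 on wild type 5 but also -0.10 on wild type 2. For Plat the relative difference was 0.71 log2, but the groups then overlapped (exact permutation p = 0.3), since wild type 5 had a low endothelial mean. With the endothelial mean as a covariate in the fit, Plat differed by 0.53, F3 by 0.39 and Tfpi by 0.35 log2. Markers of some other cells differed between the groups without overlap, though no marker of any list passed an adjusted p of 0.05 by limma. The mean of 10 adventitial fibroblast markers was 9.64, 9.46 and 9.45 in eNOS-deficient aorta, against 8.68, 8.81 and 9.15 in wild type, and all 10 markers averaged higher. When that mean was added to the fit, likewise an alternative chosen later, Plat differed by 0.28 log2, F3 by 0.28, Tfpi2 by 0.28, Plau by 0.50, Tfpi by 0.65, Thbd by 0.36, Vwf by 0.89, Plaur by 0.99, F8 by 1.77 and Procr by -0.23. That term thus lowered the differences of Plat and F3, raised those of Vwf, F8, Thbd, Tfpi, Tfpi2 and Plau, and turned those of Plaur and Procr, and none of the 10 passed an adjusted p of 0.05 in that limma fit. With the Y-linked mean as a covariate instead, Plat differed by 0.31, F3 by 0.60, Plau by 0.02, Tfpi by 0.55, Tfpi2 by 0.55 and F8 by 1.28 log2. The Y-linked and fibroblast means each separated the groups without overlap, so in these fits the added term and genotype cannot be cleanly told apart. In either fit 0 of all genes tested passed an adjusted p of 0.05 by limma, and these differences are given as values only. The 10 macrophage markers averaged 8.51, 8.55 and 8.90, against 7.67, 7.80 and 8.10, and the 10 smooth muscle markers 9.58, 9.38 and 9.67, against 9.36, 9.18 and 9.14, again without overlap. For smooth muscle the gap was narrow, between eNOS-deficient 15 and wild type 2. All 10 macrophage markers averaged higher, and so did 9 of the smooth muscle markers, while Myh11 averaged lower. The groups overlapped for the 6 platelet markers, whose cells also hold Vwf, at 6.67, 6.64 and 7.16, against 6.47, 6.85 and 7.49. They overlapped too for the 5 mesothelial markers, which averaged 6.59, 6.77 and 6.28 on the eNOS-deficient arrays, against 6.01, 6.75 and 6.60 on the wild-type arrays. The part of macrophages, smooth muscle, platelets and mesothelium in these values was not tested.

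**Figure D4:**
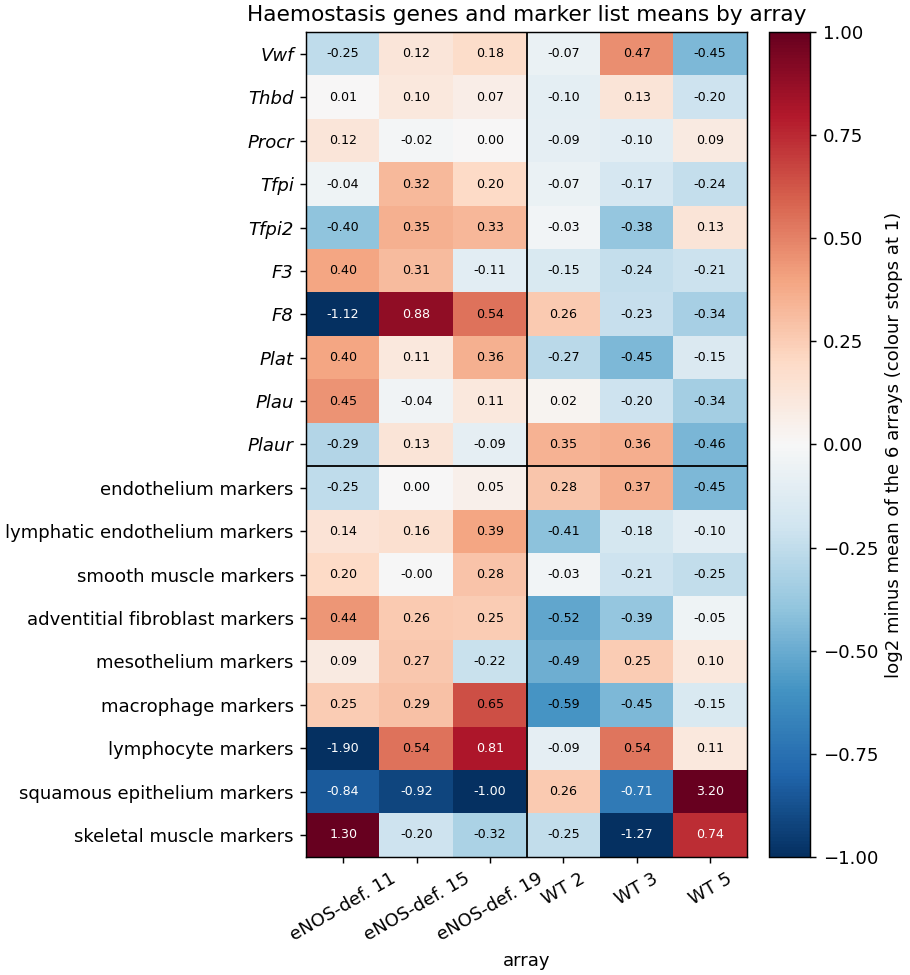
Log2 signal minus the mean of the 6 arrays for the 10 genes (upper rows) and for the means of 9 marker lists (lower rows), with eNOS-deficient arrays left of wild-type arrays; the colour stops at 1 log2 and each cell prints its value. Plaur runs alongside the endothelial markers (-0.46 and -0.45 on wild type 5), F8 and lymphocyte markers are both lowest on eNOS-deficient 11 (-1.12 and -1.90), and squamous epithelium markers stand at 3.20 on wild type 5.

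By a fixed rule, the 3 of the 10 genes with the largest standard deviation over the 6 arrays were used: F8, Plat and Plaur. Each was set against all genes tested, with predicted genes, microRNAs and genes with only a clone, sequence or locus name passed over. The 3 genes with the smallest root mean square difference of the centred log2 profile were taken. For F8 these were Clec4g (0.21 log2), a lectin of sinusoidal endothelium, Il18r1 (0.22), a chain of the interleukin-18 receptor, and Sh2d2a (0.24), an adapter of T cells. Clec4g measured 4.68, 6.23 and 6.23 in eNOS-deficient aorta, against 5.47, 5.43 and 5.33 in wild type, again lowest on eNOS-deficient 11. For Plat they were Bcat2 (0.053), a mitochondrial aminotransferase of branched-chain amino acids, Ttll1 (0.057), which modifies tubulin, and the zinc finger gene Zfp449 (0.064). For Plaur they were B3gntl1 (0.080), Mettl9 (0.080) and Socs5 (0.084). With 6 arrays and 18008 genes such likeness is easily met, and it is given as a description only.

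The rest of the pathway was read from a list of 43 genes in 5 roles, of which 38 were analysed here and 30 lay above the dim level. None of the 30 passed over all genes tested (0 higher, 0 lower by limma), and at an unadjusted p under 0.05 there were 5 higher and 1 lower, beside the 7.86% and 3.72% of all genes given above. The groups did not overlap for 8 as higher and 1 as lower, beside 13.1% and 6.47%. The median difference was 0.041 log2, close to the 0.036 of all genes. Among coagulation factors, 1 of 8 tested was higher at the unadjusted level, beside the same 7.86%: F13a1, the chain of factor XIII that crosslinks fibrin and that macrophages express, measured 8.93, 8.51 and 8.90 in eNOS-deficient aorta, against 7.44, 7.84 and 8.05 in wild type. Its groups did not overlap, at a difference of 1.00 log2 (standard error 0.20, limma adjusted p = 0.208), beside the difference of 0.79 in macrophage markers. As covariates, the Y-linked and fibroblast means gave 0.61 and 0.28. The endothelial, lymphocyte and squamous epithelium means gave 0.94, 0.98 and 1.16. The part of tissue make-up in this difference was not tested. F2, F9, F13b, Fga, Fgb, Fgg and Kng1, which the liver makes, and Serpina5 lay below the dim level of 4.38, and 7 hepatocyte markers averaged 4.97 to 5.28 on all 6 arrays.

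Of the fibrinolysis genes, 3 of 8 tested were higher at the unadjusted level and none was lower, beside 7.86% and 3.72% of all genes, and with so few genes nothing particular to the role is read from this. Serping1, the C1 inhibitor, which also restrains factor XIIa and kallikrein, measured 11.39, 11.17 and 11.49 in eNOS-deficient aorta, against 9.90, 10.19 and 11.01 in wild type, without overlap (0.98 log2, limma adjusted p = 0.294). Plgrkt, a plasminogen receptor, differed by 0.32 log2 and Lrp1, which clears complexes of plasminogen activators with their inhibitors, by 0.34, both without overlap (limma adjusted p = 0.415 and 0.421). With the adventitial fibroblast mean as a covariate, Serping1 turned to -0.32 log2, while Plgrkt differed by 0.53 and Lrp1 by 0.77. Under the endothelial, lymphocyte, squamous epithelium and Y-linked covariates, Serping1 ran from 0.74 to 1.44 log2. Plgrkt ran from 0.18 to 0.38 and Lrp1 from 0.13 to 0.39 under the same covariates. Serpinb2, an inhibitor of plasminogen activators, measured 4.38, 4.36 and 4.18 in eNOS-deficient aorta, against 4.54, 4.62 and 6.82 in wild type. It was the 1 gene whose arrays did not overlap as lower, but its eNOS-deficient mean of 4.31 lay below the dim level of 4.38, so that it was tested only through its wild-type signal and its direction is no result. Wild type 5, the array with high epithelial markers, set its wild-type mean. Serpine2, Cpb2, F2rl1 and Klkb1 were not analysed here.

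Among the anticoagulants, 1 of 7 tested was higher and 1 lower at the unadjusted level, beside the same 7.86% and 3.72% of all genes. Anxa5, annexin A5, which shields the phospholipid surfaces where clotting factors assemble, measured 11.70, 11.80 and 11.75 in eNOS-deficient aorta, against 11.28, 11.38 and 11.56 in wild type (0.34 log2, limma adjusted p = 0.375). With the fibroblast covariate its difference was 0.07 log2, and with the endothelial, lymphocyte, squamous epithelium and Y-linked covariates 0.31 to 0.45. Serpind1, heparin cofactor II, an inhibitor of thrombin, measured 4.70, 4.77 and 4.51, against 5.21, 4.76 and 5.39, close to the dim level, and its groups overlapped (-0.46 log2, limma adjusted p = 0.402). Its difference was -0.86 with the fibroblast covariate and -0.53 to -0.21 with the endothelial, lymphocyte, squamous epithelium and Y-linked covariates. None of 3 thrombin receptor genes and none of 4 genes of von Willebrand factor size and platelet ligands was past the unadjusted level by limma, and their adjusted p values ran from 0.629 to 0.996 and from 0.845 to 0.963.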

How the data were processed

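RNA from aorta (3 samples of eNOS-deficient and 3 of wild-type mice, 300 ng each, biotin-labelled per the labels' protocols) was hybridised to 1 Affymetrix array a sample. The deposited log2 values came from RMA in Affymetrix Expression Console 1.3.1, per the submitters' processing notes, and were used as deposited; scanner data were not used here. Quantile normalization within RMA removes shifts shared by all genes. Of 41345 probe sets, 23525 named 1 gene, and the brightest of each gene (mean over 6 arrays) gave 22184 genes. Genes with a mean under the 25th percentile of probe sets, 4.38 log2, were left out, leaving 18008.

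Groups were compared with limma 3.58.1 in R 4.3.3 (lmFit, eBayes, no covariate, two-sided) with Benjamini-Hochberg adjustment over 18008 genes at 0.05, and single values by exact permutation of 6 arrays. Precision is limited by the number of arrays, and the median standard error was 0.16 log2. The fit was tested on simulated data. The members and lists were chosen with earlier results of these data known. Named were all 10 members, the 6 other pathway genes with the smallest unadjusted p, and the 3 nearest profiles for each of 3 members. The nearest profiles passed over predicted genes, microRNAs and genes with only a clone, sequence or locus name. Serpinb2 was named after its values were seen, and a further gene that the rule named is not reported here. Alternatives varied the filter, variance model, probe sets, scaling, array weights, covariates, threshold and arrays. Promoter sequences are from RefSeq (GRCm38.p6). Python 3.11.15 with matplotlib 3.10.9 drew the plots.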

Additional observations from a re-analysis of the deposited data

How the results depend on the processing

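Of the 10 genes and the 30 other pathway genes, 0 and 0 were past a limma adjusted p of 0.05 under any alternative run. At an adjusted p under 0.2 with all else kept, 0 and 0 passed as well, but other alternatives gave lower values: with array weights the adjusted p was 0.082 for Plat, 0.135 for F3, 0.151 for Tfpi, 0.058 for F13a1, 0.051 for Serping1 and 0.082 for Anxa5, and with the endothelial covariate 0.123 for Plat and 0.084 for F13a1. Over all genes the count of 5 became 3 without a dim filter, 2 with probe sets averaged per gene, 2 after repeated quantile normalization, 119 with array weights, 70 with endothelial, 2 with squamous epithelium, 0 with Y-linked, 0 with lymphocyte and 0 with fibroblast markers as a covariate, 74 at an adjusted p under 0.2, 2 without eNOS-deficient 11 and wild type 5 together, and 0 to 6 with each array left out. At an unadjusted p under 0.05, the 2 members became 0 with the Y-linked covariate, 1 with the fibroblast covariate, 4 without eNOS-deficient 11 and wild type 5 together, and 1 to 3 with each array left out; the 6 other genes became 2 after repeated quantile normalization, 0 with the Y-linked covariate and 2 to 6 with each array left out. Plat, F3, Tfpi, Tfpi2 and Plau kept their sign under the alternatives that can move a difference (scaling, array weights, covariates and left-out arrays), although for Plat, F3 and Tfpi, whose groups do not overlap, leaving out arrays cannot turn it. The filter, variance, probe set and threshold alternatives leave the difference of these genes as it is. Plat ranged from 0.28 to 0.70 log2. Centring the arrays on their medians, which were lower in eNOS-deficient aorta, raised the differences of all 10 genes. It gave 0.10 log2 for Vwf, 0.13 for Procr, 0.18 for Thbd and 0.64 for Plat.

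Other signs turned. Vwf was -0.039 after repeated quantile normalization, -0.043 with array weights, -0.36 with the squamous epithelium covariate, -0.046 without eNOS-deficient 11 and wild type 5, and -0.18 to 0.28 with each array left out. Thbd was -0.015 with the squamous epithelium covariate. Procr was -0.0035 with the Y-linked and -0.23 with the fibroblast covariate, Plaur 0.12 and 0.99, and Serping1 -0.32 with the fibroblast covariate. F8 ran from -0.19 to 0.81 with each array left out, and from -0.027 to 0.85 relative to the endothelial mean. Plaur relative to that mean was 0.081 after repeated quantile normalization and -0.11 to 0.025 with each array left out. F3 over Tfpi was -0.014 after repeated quantile normalization, -0.081 without eNOS-deficient 11 and wild type 5, and -0.11 to 0.26 with each array left out; Tfpi2 over Tfpi was 0.16 without that pair and -0.27 to 0.018 with each array left out. The cause of these turns was not tested. The number of arrays limits what can be seen; the lymphocyte and fibroblast covariates and the joint removal of eNOS-deficient 11 and wild type 5 were chosen after seeing the data.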
